A study of Bos taurus with 6 samples.

Results

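Fatty acid synthesis, elongation and desaturation were examined through 10 genes, which were taken from the deposited table by their gene names, 10 of 36075 genes in all. Each name matched a single Ensembl identifier. The genes cover the supply of acetyl-CoA and the building of palmitate (ACLY, ACACA and FASN), chain elongation (ELOVL1, ELOVL5, ELOVL6 and ELOVL7) and the insertion of double bonds (SCD, FADS1 and FADS2). The libraries were made from bovine (Bos taurus) blastocysts produced in vitro, 3 from a control group and 3 from an MT-treated group. Per the study's methods, cumulus-oocyte complexes from slaughterhouse ovaries were matured for 22 h without melatonin (MT) in the control group and with MT at 1e-07 mol/L in the other, then fertilized and cultured to the blastocyst stage, and each library was a pool of 3 blastocysts. MT was thus given to the oocyte and its cumulus cells, days before the embryos were collected. No age or strain of the embryos is given in the labels, and no genetic change is named for either group.

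De novo lipogenesis starts from citrate, which ACLY cleaves in the cytosol to acetyl-CoA. ACACA carboxylates acetyl-CoA to malonyl-CoA, the committed step, and FASN assembles palmitate from these units with NADPH as the reductant. In the endoplasmic reticulum the ELOVL enzymes start each round of elongation, and SCD, FADS1 and FADS2 add double bonds with electrons passed through cytochrome b5. Bovine oocytes and early embryos are rich in lipid droplets, and fatty acids serve them as fuel and as membrane material.

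Values are TPM, a unit of transcript abundance that corrects read numbers for gene length and for the size of the library, so levels of different genes can be set side by side. TPM keeps no counts, so the reads behind each value are not known. The study states that its supplement gives sequencing depth per replicate, which was not used here. The listed TPM summed to between 912686 and 937698 per library, and 8854 to 8953 genes were above 0 in a control pool against 14372 to 14408 in an MT-treated pool. Of the 10 blastocyst markers, the trophectoderm factor CDX2 and the pluripotency factor NANOG were at 0 in every control pool, as was SOX17 of the hypoblast. SOX2 was at 0, 0.02 and 0 there. All 10 were above 0 in every MT-treated pool, SOX17 at only 0.14 to 0.20 TPM. The other markers were above 0 in every control pool too. The pluripotency factor POU5F1 had a mean of 190 TPM in control and 193 TPM in treated pools. The trophectoderm factors GATA3 (19.5 and 36.7 TPM) and TFAP2C (22.4 and 42.4 TPM) were higher in treated pools, as was GATA6 (0.327 and 32.0 TPM). Their summed level lay between 11497.9 and 11844.4 TPM in the control pools and between 10673.7 and 11031.5 TPM in the treated pools, most of it from KRT8 and KRT18. Of 10 cumulus and granulosa markers 9 were in the table, and their sum was 17.2 to 19.3 TPM in control and 15.1 to 17.1 TPM in treated pools. Nearly all of this was FSHR, while 7 of the 9 were at 0 in every control pool and 5 in every treated pool, among them FOXL2 and INHA. The 10 maternal oocyte markers were all at 0 in control and summed to 1.25 to 1.70 TPM in treated pools. The part of these differences in the results below was not tested, and in whole-embryo RNA fewer cells of a type and less RNA per cell cannot be told apart.

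The genes of de novo synthesis were higher in MT-treated blastocysts, and ELOVL6 and SCD, which elongate palmitate and desaturate stearate, were lower. ACLY rose 5.40-fold and FASN 1.55-fold, and ACACA was listed at 0 in every control pool and at 34.8 to 43.0 TPM in the treated pools. SCD fell to 0.563 of its control level and ELOVL6 to 0.577. On the deposited scale FADS2 was higher and FADS1 lower, directions that other scalings of the libraries turned, ELOVL1 and ELOVL5 differed by under 10% of their level, and ELOVL7 was not detected. Of the 10 genes, 9 reached the level required for a test, which was 1 TPM or more in 3 or more libraries. On the log2(TPM + 1) scale, on which a fold change of a low gene is understated, 4 were higher (ACACA, at 0 in control, had to be), 4 were lower and 1 did not pass when tested by limma (adjusted p under 0.05, Benjamini-Hochberg method over all 11953 tested genes). Over all tested genes, 61.6% were called higher and 34.1% lower. The values of the groups did not overlap for 8 of the 9 genes, and for 96.1% of all tested genes, so these counts do not set the genes apart from the rest of the table.

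**Figure D1:**
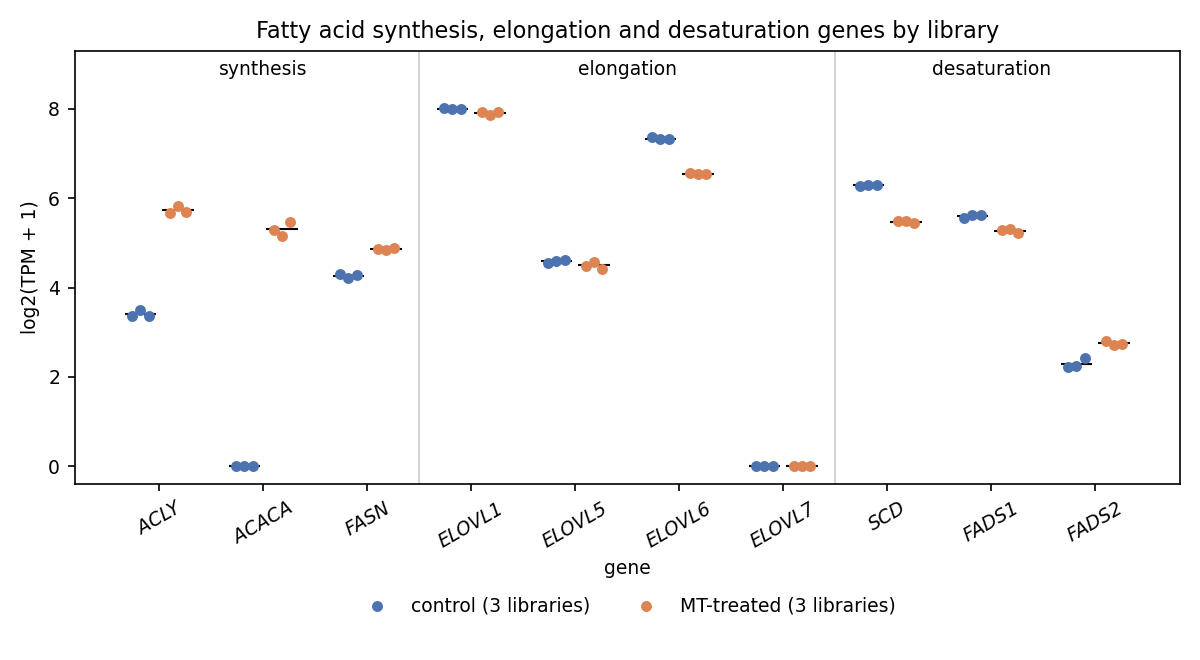
TPM of the 10 genes in each library on the log2(TPM + 1) scale, with points for the 3 control and the 3 MT-treated libraries and a short line at each group's mean. ACLY, ACACA, FASN and FADS2 sit higher in the treated libraries, SCD, ELOVL6 and FADS1 sit lower (median centring turns FADS1 and quantile normalization FADS2), the points of ELOVL5 overlap, and ELOVL7 is at 0 throughout.

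The 8 genes above 0 in all 6 libraries had a median absolute log2 fold change of 0.53, beside 0.99 for the 6925 tested genes above 0 in all 6 libraries. For the 9 tested genes it was 0.60, beside 1.98 for all tested genes, and ACLY and ACACA lay above that value. The median log2 fold change of the 8 genes was -0.10, beside -0.19 for the same 6925 genes. No test of these differences was made. A level of 0 in every control pool was found for 1 of the 9 tested genes and for 33.8% of all tested genes. Within a group, the coefficient of variation of the 8 genes lay between 0.449% and 10.3%.

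The direction of small changes depended on how the libraries were scaled. Over the 5988 genes that reached 1 TPM in each of the 6 libraries, the median of the treated libraries lay 0.48 lower on the log2 scale, and centring on that median added as much to every gene. After centring, 7 of the genes were called higher and 2 lower, in place of 4 and 4, beside 70.4% and 25.4% of all tested genes. ELOVL1, ELOVL5 and FADS1 were then higher, and SCD and ELOVL6 were still lower. With quantile normalization, which gives each library the same distribution of values, 4 were called higher and 4 lower, beside 55.3% and 38.5% of all tested genes, but FADS2 and ELOVL1 had changed sides, FADS1 was no longer called and ELOVL5 was called lower. ACLY, FASN, SCD and ELOVL6 kept their direction and their call under both scalings.

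**Figure D2:**
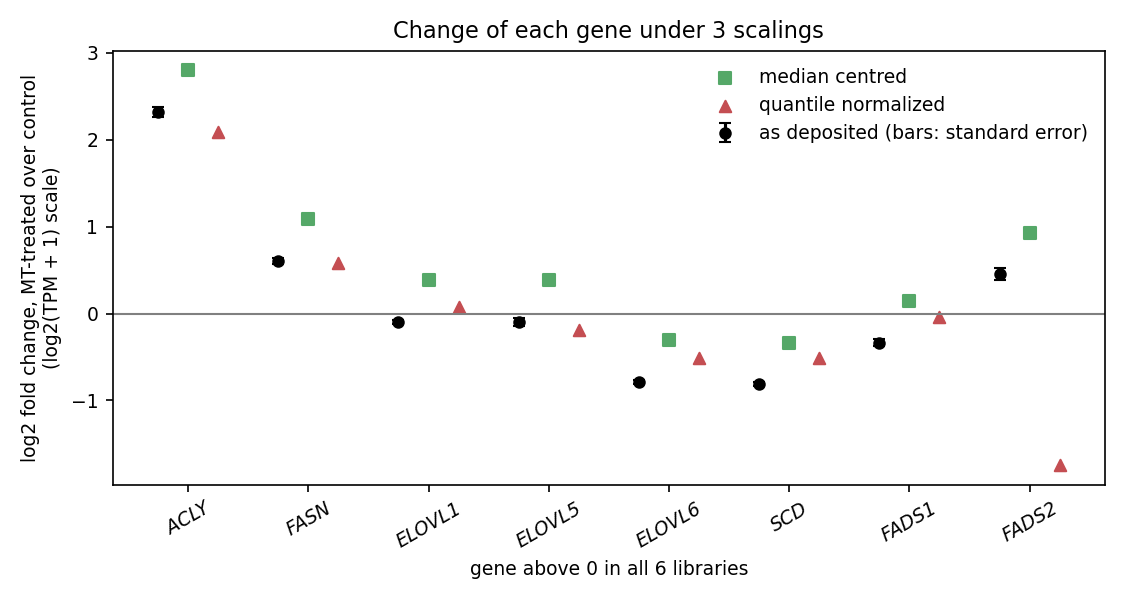
Log2 fold change of MT-treated over control for the 8 genes above 0 in all libraries, as deposited (circles, with the standard error), after median centring (squares) and after quantile normalization (triangles). ACLY and FASN stay above 0 and SCD and ELOVL6 below 0 under all 3, while ELOVL1, ELOVL5, FADS1 and FADS2 cross 0 under at least 1 of them.

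ATP citrate lyase, encoded by ACLY (ENSBTAG00000016740), cleaves citrate in the cytosol to acetyl-CoA, from which fat and sterols are made. Its level was 9.25, 10.29 and 9.34 TPM in the control pools and 49.67, 55.67 and 50.65 TPM in the MT-treated pools. The lowest treated pool was far above the highest control pool. The log2 fold change was 2.32 (standard error, SE, 0.06, adjusted p = 7.77e-08 by limma), the largest among the 8 of these genes that were detected in both groups.

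Acetyl-CoA carboxylase alpha, the cytosolic form encoded by ACACA (ENSBTAG00000017567), supplies malonyl-CoA both to FASN and to the elongases. It was listed at 0 in all 3 control pools and at 37.88, 34.81 and 42.98 TPM in the treated pools. ACACA reached the level required for a test through the treated pools alone, as 33.8% of all tested genes did, so its call followed from that requirement and no p-value is given. No fold is given against a group at 0, since a value of 0 can mean that the transcript was absent or that it was not captured or counted. The second carboxylase gene, ACACB, whose product sits at the mitochondrial surface and restrains fatty acid oxidation, was at 53.08, 52.82 and 54.00 TPM in control and fell to 29.31, 32.83 and 30.99 TPM (log2 fold change -0.76, SE 0.04, adjusted p = 4.50e-06 by limma). All carboxylase transcript in the control pools was therefore listed under ACACB. In the treated pools ACACA made up 56.4%, 51.5% and 58.1% of the pair. The summed level of the pair was chosen for description after the values were seen. It was 53.3 ± 0.620 TPM in control and 69.6 ± 3.79 TPM in treated blastocysts (SD, n = 3 each, exact permutation test, two-sided, p = 0.1). A comparison of 3 libraries with 3 cannot go below that p-value. The rise of the sum came from ACACA alone, which was at 0 in control, so the test adds no support.

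Fatty acid synthase, the multifunctional enzyme encoded by FASN (ENSBTAG00000015980), was at 18.70, 17.49 and 18.48 TPM in control pools and at 28.18, 27.80 and 28.59 TPM in treated pools. Every treated pool was higher than every control pool, and the SD within either group was under 1 TPM. The log2 fold change of FASN was 0.60 (SE 0.03, adjusted p = 4.14e-06 by limma), 1.08 after median centring and 0.58 after quantile normalization. FASN therefore rose far less than ACLY. The ratio of FASN to ACLY within a library, which median centring and rescaling of TPM leave as it is, was 1.90 ± 0.175 in control and 0.544 ± 0.0384 in treated blastocysts (SD, n = 3 each). FASN was the more abundant transcript of the pair in every control pool and ACLY in every treated pool.

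Elongation of palmitate to stearate is the task of ELOVL6 (ENSBTAG00000010564). ELOVL6 was at 164.56, 158.42 and 158.66 TPM in control and at 92.99, 92.61 and 92.16 TPM in treated pools. The treated values lay within 1 TPM of each other and well below the control values. The log2 fold change of ELOVL6 was -0.79 (SE 0.02, adjusted p = 9.02e-08 by limma), -0.31 after centring and -0.51 after quantile normalization.

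ELOVL1 (ENSBTAG00000055871), which makes very-long-chain saturated and monounsaturated fatty acids used in sphingolipids, was the most abundant of the 10 genes in each library. Its level was 256.85, 254.23 and 254.66 TPM in control and 243.73, 231.44 and 241.10 TPM in treated pools, a log2 fold change of -0.10 (SE 0.02, adjusted p = 0.00624 by limma) that was 0.38 after centring and 0.08 after quantile normalization. ELOVL5 (ENSBTAG00000003359), the elongase of polyunsaturated fatty acids, was at 22.43, 23.32 and 23.62 TPM in control and at 21.47, 22.88 and 20.48 TPM in treated pools. The groups overlapped, and the log2 fold change of -0.09 (SE 0.05, adjusted p = 0.0954 by limma) did not pass. Without MT-treated replicate 2, whose value lay inside the control range, it was -0.13 and passed (adjusted p = 0.0211 by limma). With any other library left out it did not pass (adjusted p between 0.0936 and 0.233 by limma). For ELOVL5 it was 0.38 after centring and -0.19 after quantile normalization.

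As deposited, ELOVL1 and ELOVL5 had almost the same log2 fold change, and their ratio within a library was 11.0 ± 0.357 in control and 11.1 ± 0.861 in treated blastocysts (SD, n = 3 each, exact permutation test, two-sided, p = 1). The control ratios, from 10.8 to 11.5, lay inside the range of the treated ratios, from 10.1 to 11.8. On the log2(TPM + 1) scale quantile normalization moved the difference of this ratio from -0.0018 to 0.27, with ELOVL1 called higher and ELOVL5 lower. ELOVL7 (ENSBTAG00000007704), another elongase of very-long-chain saturated fatty acids, was listed at 0 in all 6 libraries and could not be tested.

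Stearoyl-CoA desaturase, encoded by SCD (ENSBTAG00000055207), turns stearate into oleate and palmitate into palmitoleate. SCD was at 75.82, 77.86 and 77.79 TPM in control pools and at 43.78, 43.78 and 42.80 TPM in treated pools. All treated pools lay more than 30 TPM below all control pools. The log2 fold change was -0.81 (SE 0.02, adjusted p = 1.06e-07 by limma), -0.33 after centring and -0.51 after quantile normalization, close to the values of ELOVL6.

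FADS1 (ENSBTAG00000022294) and FADS2 (ENSBTAG00000015505) act in turn on polyunsaturated fatty acids, with FADS2 catalysing the entry step and FADS1 a later step towards arachidonic acid. FADS1 was at 46.15, 48.63 and 48.00 TPM in control and at 38.10, 38.44 and 36.17 TPM in treated pools, a log2 fold change of -0.33 (SE 0.03, adjusted p = 0.000111 by limma) that was 0.15 after centring and -0.04 after quantile normalization. FADS2 was at 3.64, 3.73 and 4.38 TPM in control and at 5.94, 5.55 and 5.66 TPM in treated pools, a log2 fold change of 0.45 (SE 0.07, adjusted p = 0.000634 by limma) that was 0.93 after centring and -1.74 after quantile normalization. FADS2 was the least abundant of the detected genes in both groups and FADS1 stood above it in each library. As deposited, the ratio of FADS1 to FADS2 was 12.2 ± 1.11 in control and 6.58 ± 0.303 in treated blastocysts (SD, n = 3 each), with no overlap of the groups. On the log2(TPM + 1) scale the difference of this ratio between the groups was -0.79, and quantile normalization turned it to 1.70, so no direction is given for it. In the RefSeq annotation of ARS-UCD2.0, a later build than the one used for counting, FADS1 and FADS2 on chromosome 29 overlap each other and lie beside FADS3, so reads near their shared ends may have been given to either and both values are uncertain to that extent. Overlapping protein-coding genes were also annotated there for ACACA and ELOVL1. The gene that overlaps ACACA, C19H17orf78, was at 0 in all 6 libraries.

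Taken by step, synthesis genes held a larger share of the transcripts of the 10 genes in treated blastocysts, also without ACACA. The synthesis genes ACLY, ACACA and FASN together had 27.95, 27.78 and 27.82 TPM in control and 115.73, 118.28 and 122.22 TPM in treated pools. This was 4.68% ± 0.00123 of the summed TPM of the 10 genes in control and 21.3% ± 0.610 in treated blastocysts (SD, n = 3 each). Elongases made up 73.7% ± 0.505 and then 63.2% ± 0.520, and desaturases 21.6% ± 0.506 and then 15.5% ± 0.397 (SD, n = 3 each). The groups did not overlap for any of the 3 shares (exact permutation test, two-sided, p = 0.1 for each). With ACACA, which was at 0 in control, left out of the sums, an alternative chosen after seeing the data, the share of synthesis was 4.68% ± 0.00123 in control and 15.4% ± 0.632 in treated blastocysts, that of elongases 73.7% ± 0.505 and 67.9% ± 0.811, and that of desaturases 21.6% ± 0.506 and 16.7% ± 0.302 (SD, n = 3 each), and the groups again did not overlap.

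**Figure D3:**
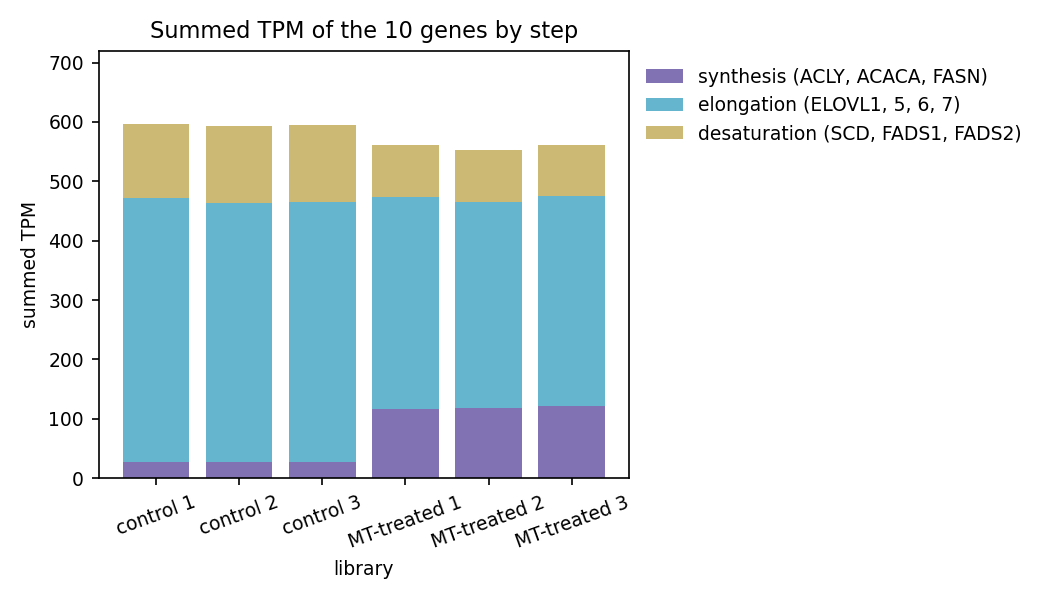
Summed TPM of the 10 genes in each library, stacked by step and starting at 0. Synthesis genes make up 27.78 to 27.95 TPM of the control bars and 115.73 to 122.22 TPM of the treated bars, while the elongation and desaturation parts are smaller in the treated libraries.

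The sum over all 10 genes was 597.40, 593.97 and 594.93 TPM in control and 561.74, 552.98 and 560.59 TPM in treated pools. It was lower by 37.0 TPM in treated blastocysts on the deposited scale (exact permutation test, two-sided, p = 0.1) but higher by 155 TPM after median centring, so no direction is given for the pathway as a whole. The share of ELOVL6 within that sum fell from 27.0% ± 0.506 to 16.6% ± 0.156 and that of SCD from 13.0% ± 0.232 to 7.78% ± 0.142 (SD, n = 3 each). ELOVL1 kept 42.9% ± 0.110 in control and 42.8% ± 0.800 in treated blastocysts (SD, n = 3 each), with overlapping values.

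Ratios between pairs of the genes recombine the levels given above. SCD exceeded FASN 4.24-fold ± 0.200 in control and 1.54-fold ± 0.0402 in treated blastocysts, and ELOVL6 exceeded FASN 8.81-fold ± 0.236 and 3.28-fold ± 0.0554 (SD, n = 3 each). On the log2 scale the difference between the groups was -1.80 for FASN to ACLY, -1.46 for SCD to FASN, -1.42 for ELOVL6 to FASN, -0.89 for FADS1 to FADS2 and 0.0021 for ELOVL1 to ELOVL5. As deposited, the groups did not overlap for 4 of the 5 ratios (exact permutation test, two-sided, p = 0.1 and 0.125 after adjustment over the 5 ratios). Such values cannot pass a threshold of 0.05 in this design. The levels of single genes did not overlap between the groups for 96.1% of all tested genes. On the log2(TPM + 1) scale quantile normalization moved the difference from -1.71 to -1.51 for FASN to ACLY, from -1.42 to -1.10 for SCD to FASN and from -1.39 to -1.09 for ELOVL6 to FASN. The same step turned FADS1 to FADS2 from -0.79 to 1.70 and moved ELOVL1 to ELOVL5 from -0.0018 to 0.27. A ratio of FASN to ACACA could not be formed because ACACA was at 0 in control.

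**Figure D4:**
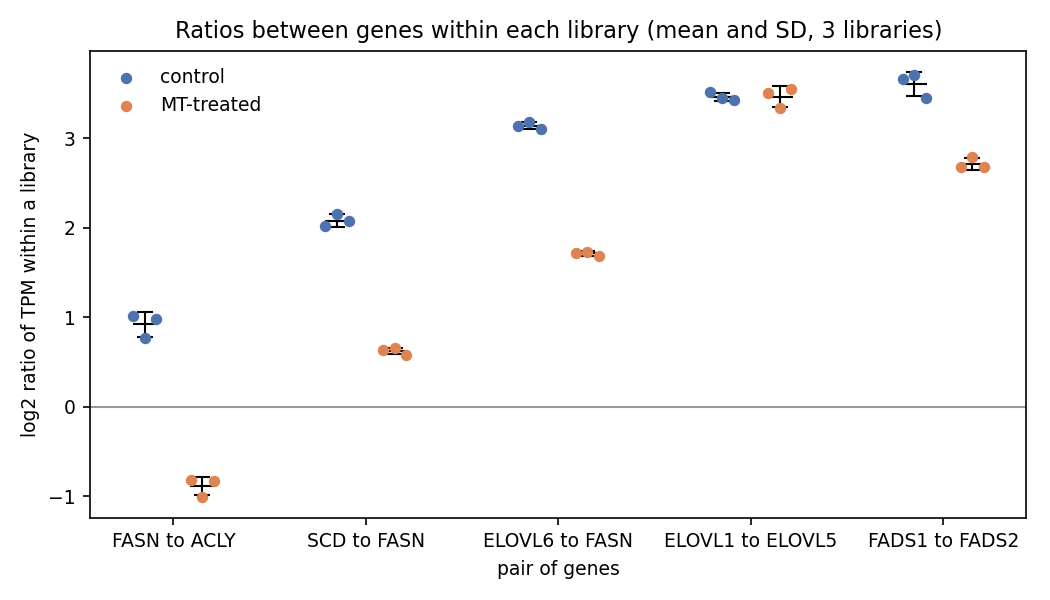
Log2 ratio of TPM between pairs of genes within each library, with points for the libraries and bars for the mean and SD of 3 libraries. The treated ratios lie below the control ratios for 4 pairs (quantile normalization, not plotted, turns FADS1 to FADS2), and those of ELOVL1 to ELOVL5 overlap.

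The order of levels changed between the groups. In control it was ELOVL1, ELOVL6, SCD, FADS1, ELOVL5, FASN, ACLY and FADS2, and no neighbours among these 8 overlapped. In treated blastocysts it was ELOVL1, ELOVL6, ACLY, SCD, ACACA, FADS1, FASN, ELOVL5 and FADS2. There SCD overlapped with ACACA and ACACA with FADS1, so that these neighbours could not be ordered beyond their spread. ACLY moved from rank 7 to rank 3.

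Other genes of the pathway were examined as 6 lists with 67 names, of which 66 were in the table and 52 could be tested. Of these, 22 were higher, 25 lower and 5 did not pass (limma, Benjamini-Hochberg method), and 13 genes were at 0 in all libraries. Of the 22, 11 were at 0 in every control pool and could be tested only through the treated pools. The shares over all tested genes were 61.6% higher and 34.1% lower. The median log2 fold change of the 52 genes was -0.03, beside 1.12 for all tested genes. After median centring 31 were higher and 17 lower, beside 70.4% and 25.4% of all tested genes.

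**Figure D5:**
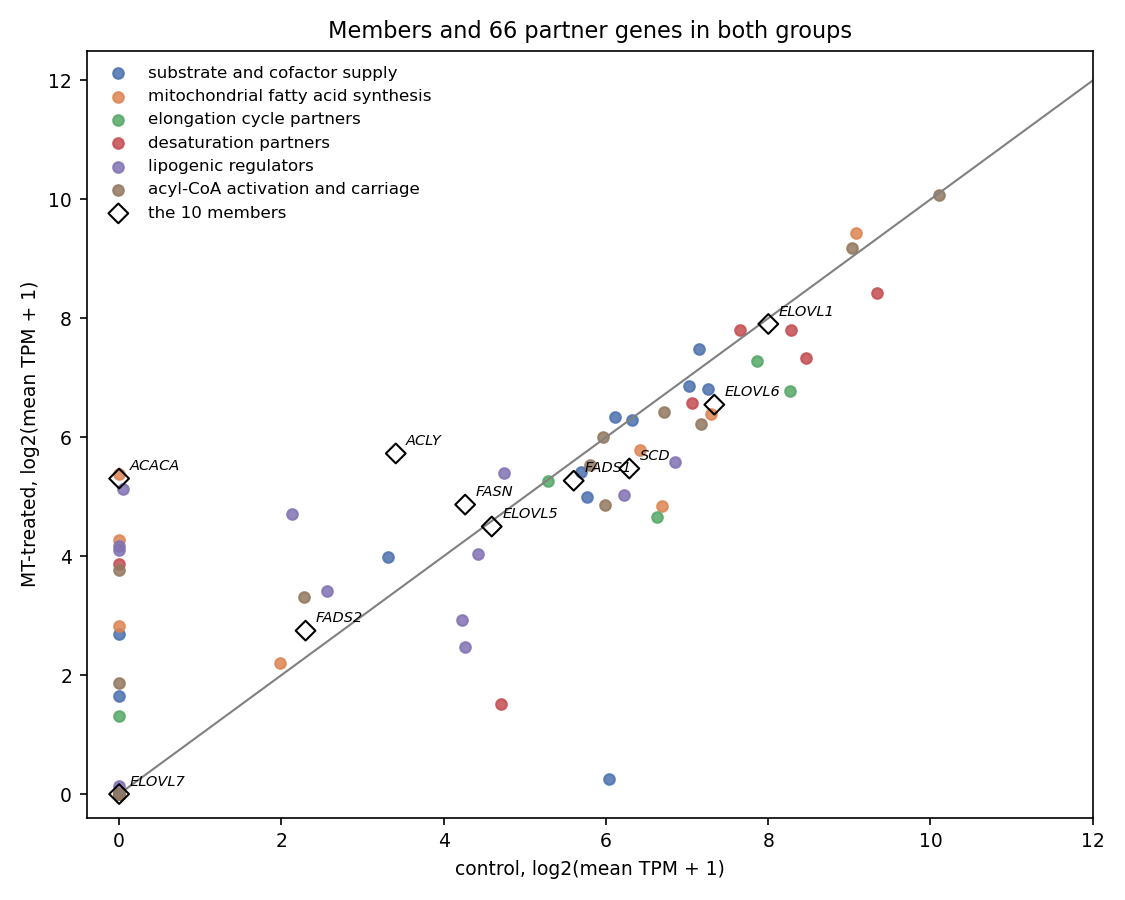
Mean level in control (horizontal) against MT-treated blastocysts (vertical) on the log2(TPM + 1) scale for the 10 genes (diamonds, named) and 66 partner genes (circles, coloured by list), with the line of equal levels. The 12 partners at 0 in control alone stand on the left edge beside ACACA, and most tested partners of elongation and desaturation lie under the line.

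Among the 12 genes that supply substrate and cofactor, 5 were higher and 5 lower, beside 61.6% and 34.1% of all tested genes. After centring 8 were higher and 2 lower, beside 70.4% and 25.4%. Of the 5 higher genes, 2 were at 0 in every control pool. The malic enzyme ME1, a source of NADPH, was at 0 in control and at 6.19, 4.55 and 5.56 TPM in treated pools. MLYCD, which breaks down malonyl-CoA, was also at 0 in control and at 1.90, 2.05 and 2.46 TPM in treated pools.

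Of 9 genes of the separate mitochondrial fatty acid synthesis and lipoic acid pathway, 4 were higher and 3 lower. The shares over all tested genes were 61.6% and 34.1%, and 3 of the 4 higher genes were at 0 in every control pool. OXSM, the condensing enzyme, and the lipoyl transferase LIPT2 were at 0 in every control pool and at 18.4 ± 1.19 and 40.5 ± 3.06 TPM in treated blastocysts (SD, n = 3 each). HSD17B8 and CBR4, the subunits of its ketoacyl reductase, fell together, from 102 ± 2.06 to 27.6 ± 1.72 TPM and from 155 ± 6.92 to 82.5 ± 1.65 TPM (SD, n = 3 each).

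Of 9 partners of elongation 5 could be tested, and HSD17B12, HACD2 and TECR were lower, 3 genes of 5 beside 34.1% of all tested genes. HSD17B12, the ketoacyl-CoA reductase, fell from 96.71, 97.74 and 99.97 TPM to 22.06, 25.73 and 25.09 TPM, a log2 fold change of -1.97 (SE 0.06, adjusted p = 1.59e-07 by limma). The dehydratase HACD2 fell from 308 ± 11.1 to 109 ± 6.55 TPM and the final reductase TECR from 231 ± 8.04 to 155 ± 3.61 TPM (SD, n = 3 each). HACD3, a second dehydratase, was at 38.1 ± 1.67 and 37.2 ± 0.344 TPM (SD, n = 3 each) and did not pass (adjusted p = 0.441 by limma). ELOVL4 was at 0 in control and at 1.38, 1.19 and 1.92 TPM in treated pools, and was the only higher gene of the 5 as deposited (2 higher and 3 lower after centring). After centring the log2 fold change was -1.49 for HSD17B12, -1.01 for HACD2 and -0.09 for TECR, against -0.57 for TECR as deposited, and ELOVL2, ELOVL3, HACD1 and HACD4 were at 0 in all libraries.

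Among 9 partners of desaturation, 2 were higher and 5 lower, beside 61.6% and 34.1% of all tested genes. After centring 2 were higher and 3 lower, beside 70.4% and 25.4%. CYB5A, the cytochrome b5 that hands electrons to the desaturases, fell from 24.02, 27.01 and 24.08 TPM to 1.63, 2.02 and 1.90 TPM, a log2 fold change of -3.19 (SE 0.07, adjusted p = 4.05e-08 by limma). The ceramide-forming desaturase DEGS1 fell from 351 ± 2.50 to 159 ± 1.06 TPM (SD, n = 3 each), whereas DEGS2 rose from 199.6 ± 3.19 to 223 ± 5.36 TPM (SD, n = 3 each). CYB5R1, a cytochrome b5 reductase, was at 0 in control and at 14.17, 12.59 and 13.84 TPM in treated pools. SCD5, the second stearoyl-CoA desaturase gene, was at 0 in all 6 libraries, so that all stearoyl-CoA desaturase transcript listed was that of SCD.

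Of 15 regulators of lipogenesis 11 could be tested, and 6 were higher and 5 lower, beside 61.6% and 34.1% of all tested genes. Of the 6 higher genes, 2 were at 0 in every control pool. SREBF1, whose product drives transcription of lipogenic genes such as FASN, ACACA and SCD, fell from 18.11, 17.19 and 19.09 TPM to 4.36, 4.20 and 5.15 TPM (log2 fold change -1.78, SE 0.08, adjusted p = 9.54e-07 by limma). SREBF2, which is best known for sterol genes, rose from 3.00, 3.50 and 3.63 TPM to 26.26, 28.68 and 20.47 TPM (log2 fold change 2.57, SE 0.13, adjusted p = 2.46e-06 by limma). The groups did not overlap for either factor, and both kept their direction and their call under centring and quantile normalization. SCAP, the escort of both factors, was at 0, 0.08 and 0.02 TPM in control and at 32.38, 35.49 and 34.59 TPM in treated pools. INSIG1, which holds SCAP back from the Golgi, fell from 17.8 ± 0.121 to 6.62 ± 0.0839 TPM (SD, n = 3 each). RXRA, a nuclear receptor partner, was at 0 in control and at 16.42, 18.53 and 15.89 TPM in treated pools, and PPARG is not analysed here.

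Of 13 genes for the activation and carriage of fatty acids, 4 were higher and 4 lower, beside 61.6% and 34.1% of all tested genes. After centring 8 were higher and 2 lower, beside 70.4% and 25.4%. Of the 4 genes higher as deposited, 2 were at 0 in every control pool. The acyl-CoA synthetases moved in different directions. ACSL3 fell from 143 ± 0.784 to 73.3 ± 1.42 TPM and ACSL4, which prefers arachidonic acid, from 62.3 ± 2.14 to 28.0 ± 2.25 TPM (SD, n = 3 each). ACSL1 was at 0 in every control pool and at 11.93, 13.16 and 12.87 TPM in treated pools, and the transporter SLC27A4 was at 0 and then at 2.36, 2.73 and 2.80 TPM.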

How the data were processed

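Bovine blastocyst RNA was measured in 6 libraries. Per the study's methods, fastp and FastQC (0.11.9) were used for quality control, STAR (2.7.9a) for alignment and featureCounts (Subread 1.6.3) for counting. The methods name the build ARS-UCD1.3 and the Smart-seq2 protocol, whereas the sample labels name ARS-UCD1.2 and a TruSeq kit. The authors deposited TPM rounded to 2 decimals, and how counts were turned into TPM is not given in the sources used here. Without counts, no interval for counting error was computed.

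Groups came from the labels, and all columns were matched. The methods give 3 production runs per group but do not tie equal replicate numbers to the same run, so libraries were treated as unpaired and p-values measure the spread between these pools. The study tested counts with DESeq2, which TPM does not allow. Genes that reached 1 TPM in 3 or more libraries were fitted on log2(TPM + 1) by lmFit, followed by eBayes with a trend in mean level (limma 3.58.1, R 4.3.3), with Benjamini-Hochberg adjustment over all tested genes and a threshold of 0.05. The fit was tested on simulated data in which most genes were unchanged. That differs from these data and does not speak to how the libraries should be scaled. Sums, shares and ratios were compared by exact permutation tests, two-sided (scipy 1.17.1, Python 3.11.15).

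The 10 genes, the lists and the tests were chosen with earlier results of these data known. Every one of the 10 was named. From each list the named genes were up to 2 rises and 2 falls with the largest log2 fold change whose groups do not overlap, plus SREBF1, SREBF2, SCAP, ACACB, HSD17B12, TECR, SCD5 and CYB5A. HACD3, ELOVL2, ELOVL3, HACD1, HACD4 and C19H17orf78 were named in addition after their values were seen. Lists came from general knowledge. Gene overlaps were read from RefSeq genes of ARS-UCD2.0, in which all 10 symbols matched, without coordinates. 1 gene that the rule selects is not reported here. No sequences are shown.

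The alternatives were quantile normalization, median centring, rescaling of each library to the same total, a pseudocount of 0.1, no filter on low values, a filter at 5 TPM, eBayes without the trend, a replicate block, and each library left out in turn, then with 1 TPM in 2 or more libraries.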

Additional observations from a re-analysis of the deposited data

How the results depend on the processing

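Of 126 refits of the fold changes of the 9 tested genes, 118 kept direction and side of the threshold. Most of these refits leave the scaling of the libraries as deposited. The changes came with median centring or quantile normalization, except for ELOVL5 without MT-treated replicate 2. Median centring gave 7 higher and 2 lower genes in place of 4 and 4 (70.4% and 25.4% of all tested genes), and turned ELOVL1 to 0.38, ELOVL5 to 0.38 and FADS1 to 0.15 on the log2 scale. Quantile normalization turned ELOVL1 to 0.0784 and FADS2 to -1.74, and, as an alternative chosen after seeing the data, the difference of FADS1 to FADS2 on the log2(TPM + 1) scale from -0.79 to 1.70. The cause was not tested, although centring by construction adds 0.48 to every gene. The summed TPM of the 10 genes was higher by 155 under centring. With each library left out, 4 genes were called higher in each case and 4 to 5 lower, over all genes 7379 to 7445 higher and 4005 to 4057 lower, and in the pathway lists 22 to 23 higher and 25 lower. The difference of summed TPM then lay between -38.6 and -34.3. The ratio of ELOVL1 to ELOVL5 differed by -0.0018 with 1 added to both and by -0.0431 to 0.0663 with a library left out, around a difference near 0, but by 0.27 with quantile normalization. The differences of the other ratios lay between -1.88 and -1.74 (FASN to ACLY), -1.49 and -1.42 (SCD to FASN), -1.44 and -1.40 (ELOVL6 to FASN), and -0.97 and -0.84 (FADS1 to FADS2). Deviations from the group means of equally numbered libraries had correlations of -0.0115, -0.000679 and 0.0588 across genes. Such values cannot decide whether equal numbers mark the same production run. A replicate block gave 7379 higher and 4082 lower genes in place of 7367 and 4071, and the same 4 and 4 calls. Without counts, and with sequencing depth not used here, statements on genes listed at 0 are limited.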
